A study of Macaca mulatta with 24 samples.

Results

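Steroid-converting enzymes were followed in visceral fat through 10 genes. These encode 11-beta-hydroxysteroid dehydrogenase type 1 (*HSD11B1*), steroid sulfatase (*STS*), aromatase (*CYP19A1*), the 5-alpha-reductases *SRD5A1* and *SRD5A3*, the 17-beta-hydroxysteroid dehydrogenase family members *HSD17B4*, *HSD17B8*, *HSD17B11* and *HSD17B12*, and cytochrome P450 oxidoreductase (*POR*). Each gene was found in the count table by matching its symbol to an Ensembl identifier. All 10 of the 10 genes sought were found among the 32386 listed, each under a single identifier, and 9 of them passed the filter on low counts. *CYP19A1* did not pass, with 193 counts over all animals.

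The tissue was white adipose tissue (WAT) of the omentum, taken by biopsy from 24 female rhesus macaques in 4 groups of 6. Controls (*C*) carried cholesterol implants and ate chow, the *T* group carried testosterone implants and ate chow, the *WSD* group ate a high-fat Western-style diet, and the *T* + *WSD* group had testosterone implants and that diet. Treatment had lasted 3 years. The labels give an age of 4 years for every animal, whereas the methods of the study state an older age, and the animals had been picked by the authors as representative of their groups in fat mass and insulin. Animals keep their numbers from the labels, which are 1 to 6 in *C*, 7 to 12 in *T* + *WSD*, 13 to 18 in *T* and 19 to 24 in *WSD*. A gene's level is given as CPM, its count divided by the normalized library size and scaled to 1e+06 reads, and levels are compared between animals only, since gene lengths were not used here.

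Fat is known less for making steroid hormones from cholesterol than for converting those that arrive in the blood. HSD11B1 turns inactive cortisone into cortisol inside the cell, STS removes the sulfate from circulating estrone sulfate and dehydroepiandrosterone sulfate, and aromatase turns androgens into estrogens. The 5-alpha-reductases make dihydrotestosterone from testosterone, although SRD5A3 is known above all for dolichol synthesis. The 17-beta-hydroxysteroid dehydrogenases switch steroids between their weak and potent forms, and several members work mainly on fatty acids. POR passes electrons from NADPH to aromatase and the other microsomal P450 enzymes. In bulk tissue a lower level can come from fewer cells of a type or from less RNA per cell, and the counts cannot tell these apart.

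Between 6899185 and 28270776 reads were counted per animal, with a median of 20630512.5. In 8 libraries, 2 in each group, the gene ENSMMUG00000038258 took 9.92% to 54.7% of the counts, against 0.879% to 2.51% in the other 16. These 8 are called the high-share libraries below. They were grouped by that share alone, and no label marks them as a batch. The adipocyte genes of a marker list (*ADIPOQ*, *PLIN1* and 8 others) were high throughout, while *CYP11B1*, *CYP11B2* and *MC2R*, which mark the adrenal cortex, had no count in any animal, and *NR5A1*, *CYP11A1* and *HSD3B2* had at most 3 counts in any animal. Animal C1 stood apart in its markers. Its summed adipocyte markers were 3812 CPM, against 14164 to 22686 in the other controls, and its mesothelial markers summed to 38894 CPM, against 2727 to 9754. Mesothelial cells are the lining cells of the omentum's surface.

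A gene was called changed at an adjusted p under 0.05 (edgeR's quasi-likelihood test in 1 fit to all 24 animals, adjusted over the 15207 genes that passed the filter) and a fold change over 1.5. Of the 9 tested genes, 2 were called higher in *T* + *WSD* than in *C* (*STS* and *HSD11B1*) and none lower, where 10% of all tested genes were called, 4.72% higher and 5.29% lower. The same 2 had an unadjusted p under 0.05, against 32.1% of all genes. The symbol of *HSD11B1* came from the study's supplementary tables, which include its lists of differentially expressed genes. Its entry among the 9 may thus not be independent of its call. None of the 9 was called by this test in *WSD* against *C* or in *T* against *C*, where it called 0% of all genes. At an unadjusted p under 0.05 there were 3 of 9 in *WSD* against *C* and 0 of 9 in *T* against *C*, against 18.5% and 8.63% of all genes. DESeq2 called 1 of the 9, *STS*, in *WSD* against *C*, where it called 238 of all genes. In *T* against *C* it called 0 of the 9 and 7 of all genes. The 3 comparisons share the same control animals.

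**Figure D1:**
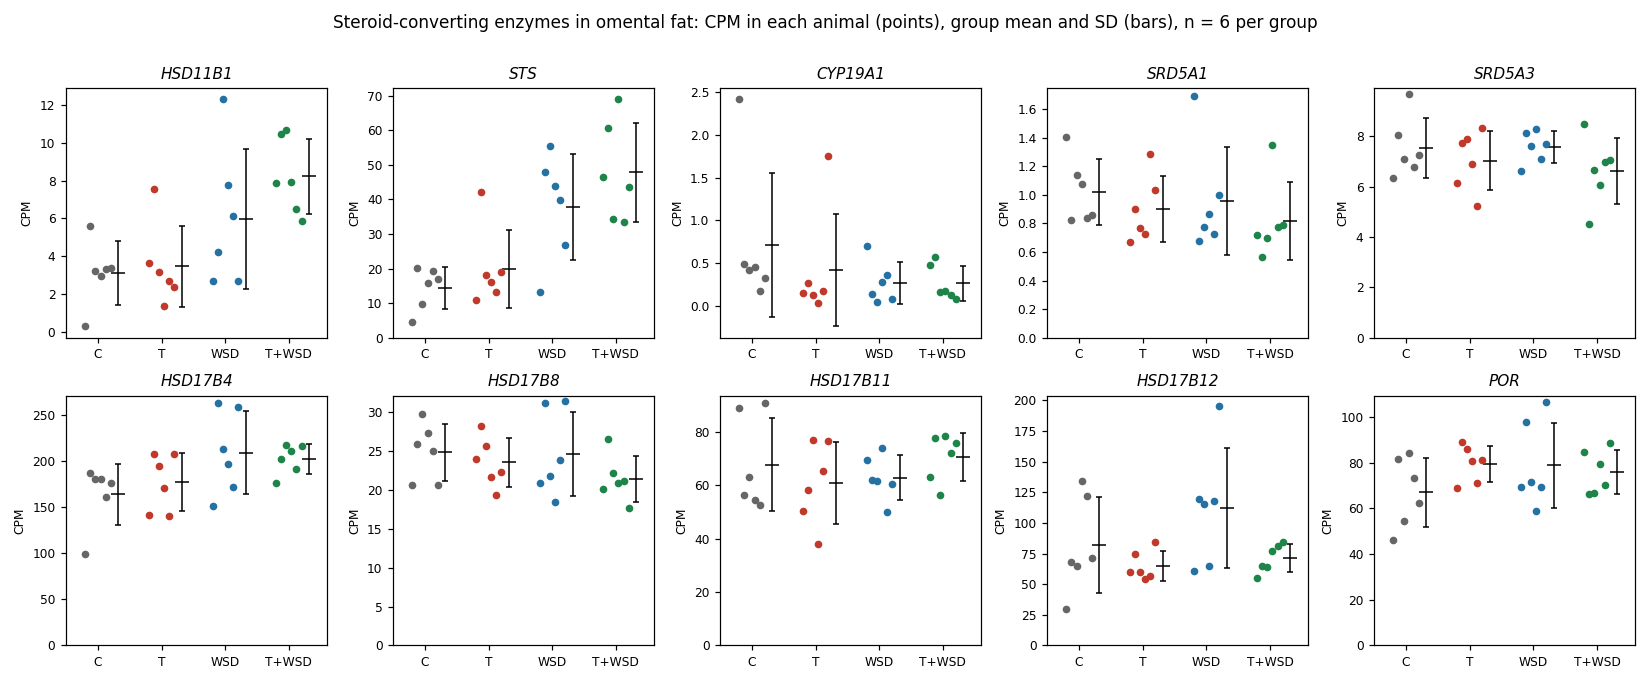
Level of each of the 10 genes in every animal, in CPM on a linear axis, by group, with 1 point per animal and the group mean with its SD (n = 6) as a bar. *STS* and *HSD11B1* are the genes whose 6 *T* + *WSD* animals all lie above every control, *CYP19A1* is near 0 but for animals C1 and T18, and the other panels show groups that overlap.

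*HSD11B1* activates glucocorticoids. Its level in *C* ran from 0.281 CPM (animal C1) over a median of 3.27 to 5.58, and in *T* from 1.34 over 2.92 to 7.54. In *WSD* it ran from 2.66 over 5.15 to 12.3, and in *T* + *WSD* from 5.86 over 7.90 to 10.7. The *T* + *WSD* animals were all above the controls, and the groups did not overlap, as was so for 7.61% of all genes in this comparison, 3.49% with *T* + *WSD* above. The *WSD* animals were spread widely, with 3 of 6 above every control. The means were 3.12 ± 1.69 CPM in *C* and 8.22 ± 1.99 in *T* + *WSD* (SD, n = 6 each).

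*HSD11B1* had a log2 fold change in *T* + *WSD* against *C* of 1.42 (SE 0.47, adjusted p = 0.0410), a 2.67-fold higher level. Against *C* it was 0.98 in *WSD* (SE 0.46, adjusted p = 0.263) and 0.15 in *T* (SE 0.47, adjusted p = 0.957), neither called. The direction in *T* turned without animal C1 or T14, in the 16 libraries without a high share and with adipocyte or endothelial markers in the fit. The 95% interval of the effect of *T* ran from -0.76 to 1.06, so that a sizeable change in either direction was within the error of this group. The call in *T* + *WSD* was near its threshold. It was lost in 9 of the 12 fits that left out an animal (kept without C2, T+WSD 11 or T+WSD 12), with adjusted p up to 0.0797, although the log2 fold change stayed between 1.19 and 1.65. Without C1 it was 1.19 (adjusted p = 0.0638). DESeq2 gave 1.43 (adjusted p = 0.0147).

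Against the *T* animals the difference in *HSD11B1* was of a like size. In *T* + *WSD* against *T* the log2 fold change was 1.26 (SE 0.46, adjusted p = 0.0947), not called, and it was called by DESeq2 (adjusted p = 0.0480) and without T14 (1.63, adjusted p = 0.0355). In *T* + *WSD* against *WSD* it was 0.44 (SE 0.46, adjusted p = 0.631). The gene shares its locus with *G0S2* and *LAMB3* in the RefSeq annotation of another assembly of the species, and since the counting's strand setting is not given in the sources used here, reads of overlapping genes may have been shared. *G0S2* was at 0.64 (SE 0.41, adjusted p = 0.296) and *LAMB3* at 0.78 (SE 0.40, adjusted p = 0.183) in *T* + *WSD* against *C*. *G0S2* had a median of 9709 counts in *C* and 16561 in *T* + *WSD*, against 74 and 146 for *HSD11B1*. Both genes were lowest of *C* in C1 and highest in C2, and highest of *T* in T14 and of *WSD* in WSD 21. Their lowest animals in *T* and *WSD* and their highest in *T* + *WSD* differed. Sharing of reads was not tested.

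*STS* frees steroids from their sulfates and had the largest effect of the 9 genes. In *C* its level ran from 4.55 CPM (animal C1) over a median of 16.5 to 20.03, and in *T* from 10.9 over 17.2 to 42.1. *WSD* animals ran from 13.1 (animal 19) over 41.9 to 55.4, and *T* + *WSD* animals from 33.5 over 44.9 to 69.0. Every *T* + *WSD* animal and 5 of 6 *WSD* animals were above the highest control. In *T*, animal 14 alone was above the controls, and the next highest was at 18.9 CPM.

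Mean levels of *STS*, each with its SD over 6 animals, were 14.4 ± 6.08 CPM for *C*, 19.96 ± 11.3 for *T*, 37.9 ± 15.4 for *WSD* and 47.8 ± 14.3 for *T* + *WSD*. Its log2 fold change in *T* + *WSD* against *C* was 1.73 (SE 0.37, adjusted p = 0.00523), a 3.33-fold higher level, and the call held in each of the 12 fits that left out an animal (1.57 to 1.86). Against *C*, *WSD* was at 1.40 (SE 0.36, adjusted p = 0.131), a 2.65-fold higher mean that was not called. DESeq2 called it (1.40, adjusted p = 0.0197), and so did the fit without WSD 19 (1.58, adjusted p = 0.0438). *T* was at 0.47 (SE 0.36, adjusted p = 0.731).

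Among the animals with testosterone implants, those on the diet had more *STS*. In *T* + *WSD* against *T* its log2 fold change was 1.26 (SE 0.36, adjusted p = 0.0399), and *STS* was the 1 of 9 genes called in that comparison, where 3.77% of all genes were called. An unadjusted p under 0.05 was found for 2 of the 9, *STS* and *HSD11B1*, against 25.9% of all genes. The *STS* call was lost in 10 of the 12 fits that left out an animal, all but those without T+WSD 11 or T14, with adjusted p up to 0.0906. Among the animals on the diet, *STS* was at 0.33 in *T* + *WSD* against *WSD* (SE 0.35, adjusted p = 0.642), and 0 of the 9 genes were called in this comparison, where 0.815% of all genes were. Of the 9, 1 (*HSD17B12*) had an unadjusted p under 0.05 there, against 20% of all genes. DESeq2 called 0 of the 9 and 431 of all genes. In the order *C*, *T*, *WSD*, *T* + *WSD* of the mean levels of both *STS* and *HSD11B1*, no neighbouring pair of groups differed by this test from *C* to *T* or from *WSD* to *T* + *WSD*, and the step from *T* to *WSD* was not tested.

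**Figure D2:**
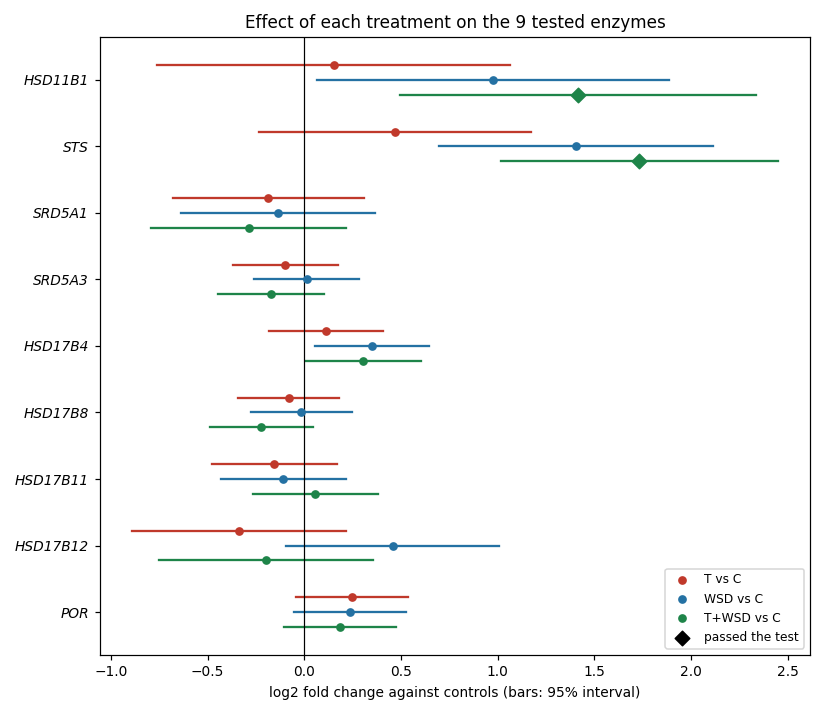
Log2 fold change against controls of the 9 tested genes in *T*, *WSD* and *T* + *WSD*, with 95% intervals as bars and a diamond where the gene was called. *STS* and *HSD11B1* lie furthest right in *T* + *WSD* (1.73 and 1.42) and in *WSD* (1.40 and 0.98), and the other 7 genes lie between -0.34 and 0.46.

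*CYP19A1*, the aromatase gene, was hardly counted in this depot. Its counts per animal ran from 1 to 56. The level in *C* ran from 0.176 CPM over a median of 0.437 to 2.42, and in *T* from 0.0363 over 0.159 to 1.75. *WSD* ran from 0.0407 over 0.206 to 0.704 and *T* + *WSD* from 0.0832 over 0.167 to 0.565. Animal C1 (43 counts, 2.42 CPM) and animal T18 (56 counts, 1.75 CPM) were far above all others. The next by CPM was WSD 19 (5 counts, 0.704 CPM), and the next by counts was C4 (11 counts, 0.454 CPM). The same 2 animals had the highest sums of mesothelial markers, 38894 CPM in C1 and 17571 in T18, and no other animal was above 9754. Other animals did not all follow this order. T+WSD 8 (2 counts, 0.565 CPM) had the lowest mesothelial sum, 235 CPM, and WSD 24 (2 counts, 0.0832 CPM) had 5943 CPM. The part of mesothelial cells in the *CYP19A1* level was not tested.

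No main test was made for *CYP19A1*, which the filter removed. Without the filter its log2 fold change in *T* + *WSD* against *C* was -1.76 (SE 0.84, adjusted p = 0.209), and by DESeq2 -1.65 (SE 0.85, adjusted p = 0.165). In *WSD* against *C* the values were -1.52 (adjusted p = 0.424) and -1.52 (adjusted p = 0.280). Without C1, which held 43 of the 193 counts, the unfiltered value was -0.78 (SE 0.80, adjusted p = 0.614) in *T* + *WSD* and -0.57 (SE 0.78, adjusted p = 0.851) in *WSD*, so the size of both rested on that animal. In *T* against *C* the unfiltered value was -0.68 (adjusted p = 0.813), 0.27 without C1 and -2.29 without T18 (adjusted p = 0.587). None of these values had an adjusted p under 0.05. In the unfiltered quasi-likelihood fits the unadjusted p was 0.0461 in *T* + *WSD* against *C* and 0.00388 in *T* against *C* without T18. A difference in aromatase was neither shown nor excluded by these counts.

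The 5-alpha-reductases did not pass the test in any comparison. *SRD5A1*, which acts on testosterone, was near the detection limit, with 446 counts over all animals. Its mean level (± SD, n = 6) was 1.02 ± 0.231 CPM for *C*, 0.898 ± 0.230 for *T*, 0.955 ± 0.378 for *WSD* and 0.816 ± 0.272 for *T* + *WSD*. In *T* + *WSD*, 5 of the 6 animals were at or below 0.790 CPM and below every control, while animal 10 stood at 1.35 CPM. The difference from *C* was -0.29 in log2 (SE 0.26, adjusted p = 0.473), with a 95% interval from -0.79 to 0.22.

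*SRD5A3*, a polyprenol reductase of the pathway that builds the lipid carrier of N-glycans, was measured more firmly. Means and SDs over 6 animals were 7.52 ± 1.19 CPM for *C*, 7.02 ± 1.18 for *T*, 7.58 ± 0.627 for *WSD* and 6.62 ± 1.30 for *T* + *WSD*, and the groups overlapped widely. *SRD5A3* had a log2 fold change in *T* + *WSD* against *C* of -0.17 (SE 0.14, adjusted p = 0.422), and its 95% interval, from -0.44 to 0.10, leaves out a change of 1.5-fold in either direction. Of the genes of dolichol and N-glycan precursor synthesis, 0 of 10 tested were called in any comparison. The 3 with the smallest p in *T* + *WSD* against *C* were *DHDDS* at 0.28 (adjusted p = 0.0995), *DOLK* at 0.44 (adjusted p = 0.105) and *DPM1* at -0.25 (adjusted p = 0.131).

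Among the 17-beta-hydroxysteroid dehydrogenases, none of the 4 members was called. *HSD17B4*, the bifunctional enzyme of peroxisomal beta-oxidation that also oxidises estradiol, ran from 99.1 (animal C1) over a median of 178 to 186 CPM in *C* and from 176 over 206 to 218 in *T* + *WSD*. In *T* it ran from 140 over 183 to 208, and in *WSD* from 152 over 205 to 263. Above every control were 5 of 6 *T* + *WSD* animals and 4 of 6 *WSD* animals, and the controls other than C1 lay close together. Its log2 fold change against *C* was 0.31 in *T* + *WSD* (SE 0.15, adjusted p = 0.166) and 0.35 in *WSD* (SE 0.15, adjusted p = 0.222).

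The partners of *HSD17B4* in peroxisomal beta-oxidation gave 0 of 14 genes called in any comparison. Their median log2 fold change was 0.14 in *T* + *WSD* and 0.28 in *WSD* against *C*, beside -0.042 and -0.016 over all genes, and 12 of 14 were above 0 in *WSD*, where 47.6% of all genes were. *PHYH*, which starts the breakdown of phytanic acid, was at -0.47 (SE 0.13, adjusted p = 0.0182) in *T* + *WSD*, below the fold change that a call required. *ABCD3*, a peroxisomal transporter, was at 0.32 (adjusted p = 0.0930) and *HACL1* at 0.63 (adjusted p = 0.128).

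*HSD17B12*, the ketoacyl reductase of very-long-chain fatty acid elongation that also reduces estrone, varied widely in *C* and *WSD*. It ran from 30.1 (animal C1) over 69.9 to 135 CPM in *C*, from 53.8 over 60.0 to 84.1 in *T*, from 61.0 over 117 to 196 in *WSD*, and from 55.1 over 71.2 to 84.8 in *T* + *WSD*. In *WSD* 4 of the 6 animals, all between 116 and 196 CPM, were above every animal of *T* and *T* + *WSD*, and *C* overlapped all groups. On the log2 scale the difference was 0.46 in *WSD* against *C* (SE 0.28, adjusted p = 0.387) and -0.65 in *T* + *WSD* against *WSD* (SE 0.28, unadjusted p = 0.0303, adjusted p = 0.196). Against *C* it was -0.34 in *T* (SE 0.28) and -0.20 in *T* + *WSD* (SE 0.28), and both turned positive in the 8 high-share libraries alone.

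Elongation genes other than *HSD17B12* gave 0 of 10 called in any comparison. Their median was 0.45 in *WSD* against *C* and -0.23 in *T* + *WSD* against *WSD*, beside -0.016 and -0.032 over all genes. By the p in *T* + *WSD* against *C*, the first 3 were *HACD4* at -0.70 (adjusted p = 0.0697), *HACD1* at 0.81 (adjusted p = 0.103) and *ELOVL5*, an elongase of polyunsaturated fatty acids, at 0.87 (adjusted p = 0.150).

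*HSD17B8*, part of the mitochondrial fatty acid synthesis pathway, averaged (± SD, n = 6) 24.9 ± 3.67 CPM for *C*, 23.6 ± 3.17 for *T*, 24.6 ± 5.45 for *WSD* and 21.5 ± 2.94 for *T* + *WSD*. The difference of *T* + *WSD* against *C* was -0.22 in log2 (SE 0.13, adjusted p = 0.267). *PFDN6* overlaps it in the RefSeq annotation and was at -0.44 (SE 0.14, adjusted p = 0.0316) in that comparison. Of the pathway's other genes 0 of 6 were called in a comparison of 2 groups. The first 3 by p were *MCAT* at -0.24 (adjusted p = 0.174), *MECR* at 0.37 (adjusted p = 0.448) and *LIPT2* at -0.27 (adjusted p = 0.571).

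*HSD17B11*, a lipid droplet protein that oxidises androstanediol, was not called in any comparison. Its means, with SDs over 6 animals, were 67.7 ± 17.5 CPM for *C*, 60.8 ± 15.3 for *T*, 62.8 ± 8.26 for *WSD* and 70.5 ± 8.97 for *T* + *WSD*. The log2 fold change of *T* + *WSD* against *C* was 0.057 (SE 0.17, adjusted p = 0.858), with a 95% interval from -0.27 to 0.38, and its sign changed without C4 or C5, in the high-share libraries alone and with endothelial markers in the fit. All 4 groups overlapped.

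*POR* ran from 46.3 (animal C1) over 67.8 to 84.0 CPM in *C*, from 68.9 over 80.9 to 89.0 in *T*, from 58.7 over 70.4 to 106 in *WSD* and from 66.1 over 74.8 to 88.4 in *T* + *WSD*. No group stood apart. Against *C* the log2 fold change was 0.25 in *T* (SE 0.15, adjusted p = 0.644), 0.23 in *WSD* (SE 0.15, adjusted p = 0.395) and 0.18 in *T* + *WSD* (SE 0.15, adjusted p = 0.417). With adipocyte markers in the fit the last value was -0.023.

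Markers of several cell types moved between *C* and *T* + *WSD* together with *STS* and *HSD11B1*. Between these groups 4.72% of all genes were called higher and 5.29% lower. Adipocyte markers summed to 3812 to 22686 CPM in *C* and 20488 to 32620 in *T* + *WSD*, with 2 of 10 tested markers called higher (*FABP4* and *LEP*). Mesothelial markers summed to 2727 to 38894 in *C* and 235 to 3071 in *T* + *WSD*, with 8 of 10 called lower. Endothelial markers summed to 1013 to 1748 in *C* and 1934 to 3004 in *T* + *WSD* (6 of 10 called higher), and smooth muscle and pericyte markers to 763 to 1628 and 1666 to 2243 (4 of 8 called higher). Macrophage markers summed to 1324 to 8351 in *C* and 7033 to 12282 in *T* + *WSD*, with 5 of 6 animals above every control. Of the 12 macrophage markers, 2 were called higher (*GPNMB* and *ITGAX*) and 1 lower (*CD9*). The macrophage list also holds *LPL*, which is on the adipocyte list too. There was 1 call each way among 12 fibroblast and progenitor markers, and there were none called of 5 lymphocyte markers for T and NK cells, of 4 for B cells with plasma cells and of 3 for steroid-producing cells. Of 3 tested hepatocyte markers 2 were called higher, *ALB* and *CYP2E1*, and that list summed to 17.5 to 78.4 CPM in *T* + *WSD* against 4.33 to 77.3 in *C*.

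Some animals at an end of the *STS* and *HSD11B1* ranges were also at an end of the adipocyte and macrophage sums. *LPL* is on both marker lists, so these sums share a gene and are not independent of each other. C1 was lowest of all in both genes and in both sums (3812 and 1324 CPM). T14 was highest of *T* in both genes (42.1 and 7.54 CPM) and both sums (30779 and 9354 CPM), and WSD 21 was highest of *WSD* in both genes (55.4 and 12.3 CPM) and both sums (33606 and 13328 CPM). Other animals did not follow this order, among them T+WSD 11, with the lowest *STS* of its group (33.5 CPM) but an adipocyte sum of 32082 CPM and the highest macrophage sum of that group (12282 CPM). The part of macrophages in these levels was not tested. With the mean of the adipocyte markers as a covariate, the log2 fold change in *T* + *WSD* against *C* was 1.05 for *STS* (adjusted p = 0.0868) and 0.56 for *HSD11B1* (adjusted p = 0.461), and 0 of all genes were called in that fit. With the endothelial mean the values were 1.16 (adjusted p = 0.440) and 0.76 (adjusted p = 0.692), with the mesothelial mean 0.95 and 0.49 (adjusted p = 0.999 for both), and with the smooth muscle and pericyte mean 1.63 (adjusted p = 0.104) and 1.197 (adjusted p = 0.318). Cell composition and level per cell cannot be told apart in these fits, because the marker means differ between the groups.

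Both differences had the same direction inside and outside the high-share libraries. In the 16 other libraries, 4 per group, *STS* was at 1.56 (adjusted p = 0.0436) and *HSD11B1* at 1.28 (adjusted p = 0.0898) in *T* + *WSD* against *C*. In the 8 high-share libraries, 2 per group, they were at 2.19 (adjusted p = 0.402) and 1.78 (adjusted p = 0.516).

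**Figure D3:**
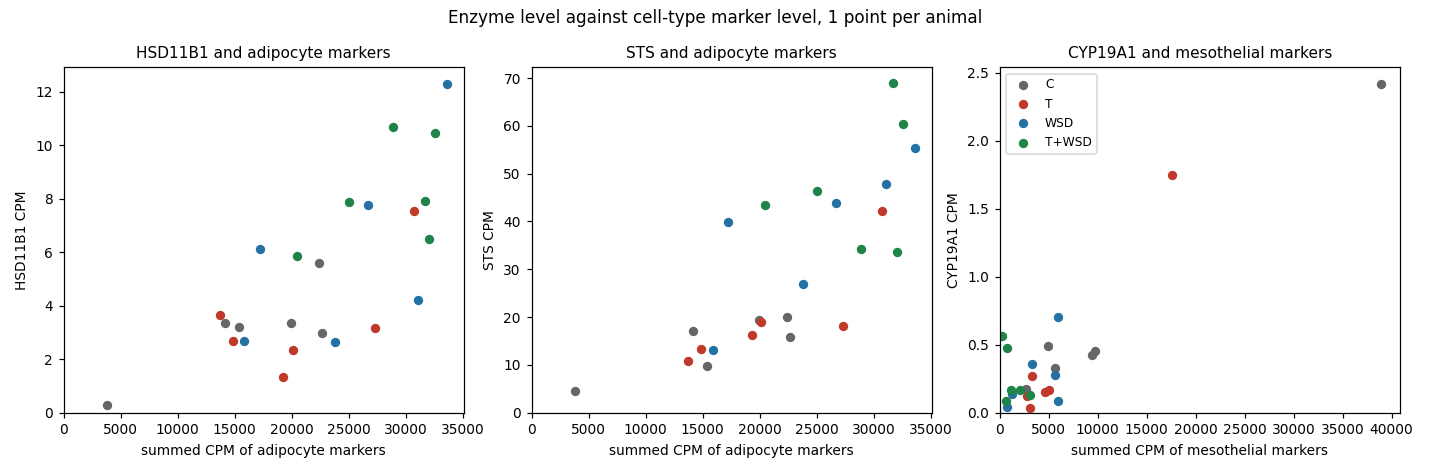
*HSD11B1* and *STS* (CPM) against the summed CPM of adipocyte markers, and *CYP19A1* against that of mesothelial markers, with 1 point per animal, coloured by group. C1 is the point at lower left in the first 2 panels (3812 CPM of adipocyte markers) and at upper right in the third (38894 CPM of mesothelial markers), where T18 is the other high point.

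The genes with the most similar course over the 24 animals were sought by the root mean square distance of log2 CPM, each gene centred on its own mean. For *STS* they were *AOC2* (0.35 log2 units), an amine oxidase, *MCAM* (0.36), an adhesion molecule of vessel walls, and *SLC24A3* (0.42), a sodium, potassium and calcium exchanger, beside an SD of 0.98 for *STS* itself. For *HSD11B1* they were *BANK1* (0.47), *RBPMS2* (0.51) and *AOC2* (0.51), beside an SD of 1.09. In *T* + *WSD* against *C* these genes were at 1.57 (*AOC2*), 1.19 (*MCAM*), 1.52 (*SLC24A3*), 1.07 (*BANK1*) and 1.01 (*RBPMS2*), and all but *RBPMS2* were called. They were picked for their likeness to genes that differ between these groups, so these values are no separate support.

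The other genes of steroid synthesis and conversion were mostly not called. Of 45 listed, 34 were found and 21 tested, and in *T* + *WSD* against *C* 2 were called higher and 1 lower, with a median log2 fold change of 0.034. The shares over all genes were 4.72% higher and 5.29% lower. *CYP7B1*, which 7-alpha-hydroxylates dehydroepiandrosterone and oxysterols, ran from 1.86 over 4.03 to 5.64 CPM in *C* and from 5.28 over 10.4 to 14.9 in *T* + *WSD*, with 1.43 in log2 (SE 0.28, adjusted p = 0.00394). It also was called in *T* + *WSD* against *T* (1.05, SE 0.28, adjusted p = 0.0316), a call lost in 6 of 12 fits that left out an animal. *HSD17B1*, which reduces estrone to estradiol, was low, from 1.28 over 1.33 to 1.84 CPM in *C* and from 1.87 over 2.51 to 2.92 in *T* + *WSD* (0.76, SE 0.21, adjusted p = 0.0174). Its groups did not overlap, as was so with *T* + *WSD* above for 3.49% of all genes. *PGRMC1*, a heme-binding partner of P450 enzymes, fell by 0.71 (SE 0.20, adjusted p = 0.0175), and without C1, its highest control at 62.5 CPM, the value was -0.41 and not called (adjusted p = 0.0585). In *WSD* against *C* the list had 0 genes called and a median of 0.34, with 16 of 21 above 0, where 47.6% of all genes were.

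For cortisol handling, *HSD11B2*, *H6PD* and *NR3C1* are given for their known roles, outside the rule for naming genes. *HSD11B2*, which inactivates cortisol, was at 4.62 ± 1.78 CPM in *C* and 4.53 ± 3.03 in *T* + *WSD* (log2 fold change 0.017, SE 0.41, adjusted p = 0.985). *H6PD*, which supplies HSD11B1 with NADPH, was at 84.2 ± 14.2 and 66.2 ± 5.22 (-0.35, SE 0.13, adjusted p = 0.0755). *NR3C1*, the glucocorticoid receptor, was at 193 ± 14.6 and 199.8 ± 19.2 (0.053, SE 0.10, adjusted p = 0.777), all as mean ± SD with n = 6.

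Steroid receptors showed changes in opposite directions. Of the 6 reported here, 1 was called higher and 1 lower in *T* + *WSD* against *C*, where 4.72% of all genes were called higher and 5.29% lower. *ESR1*, estrogen receptor alpha, ran from 9.57 over 11.1 to 21.9 CPM in *C*, 7.95 over 12.1 to 15.7 in *T*, 5.78 over 7.95 to 10.7 in *WSD* and 5.37 over 6.48 to 9.19 in *T* + *WSD*, where all animals were below every control, as was so for 4.12% of all genes. It fell by 1.03 against *C* (SE 0.23, adjusted p = 0.00621) and by 0.81 against *T* (SE 0.23, adjusted p = 0.0369), the latter call being lost in 8 of 12 fits that left out an animal. *GPER1*, a membrane estrogen receptor, rose by 0.80 (SE 0.27, adjusted p = 0.0439), from 1.31 over 3.20 to 4.13 CPM in *C* to between 4.00 and 5.80 in *T* + *WSD*, and its call was lost in 8 of 12 fits that left out an animal.

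**Figure D4:**
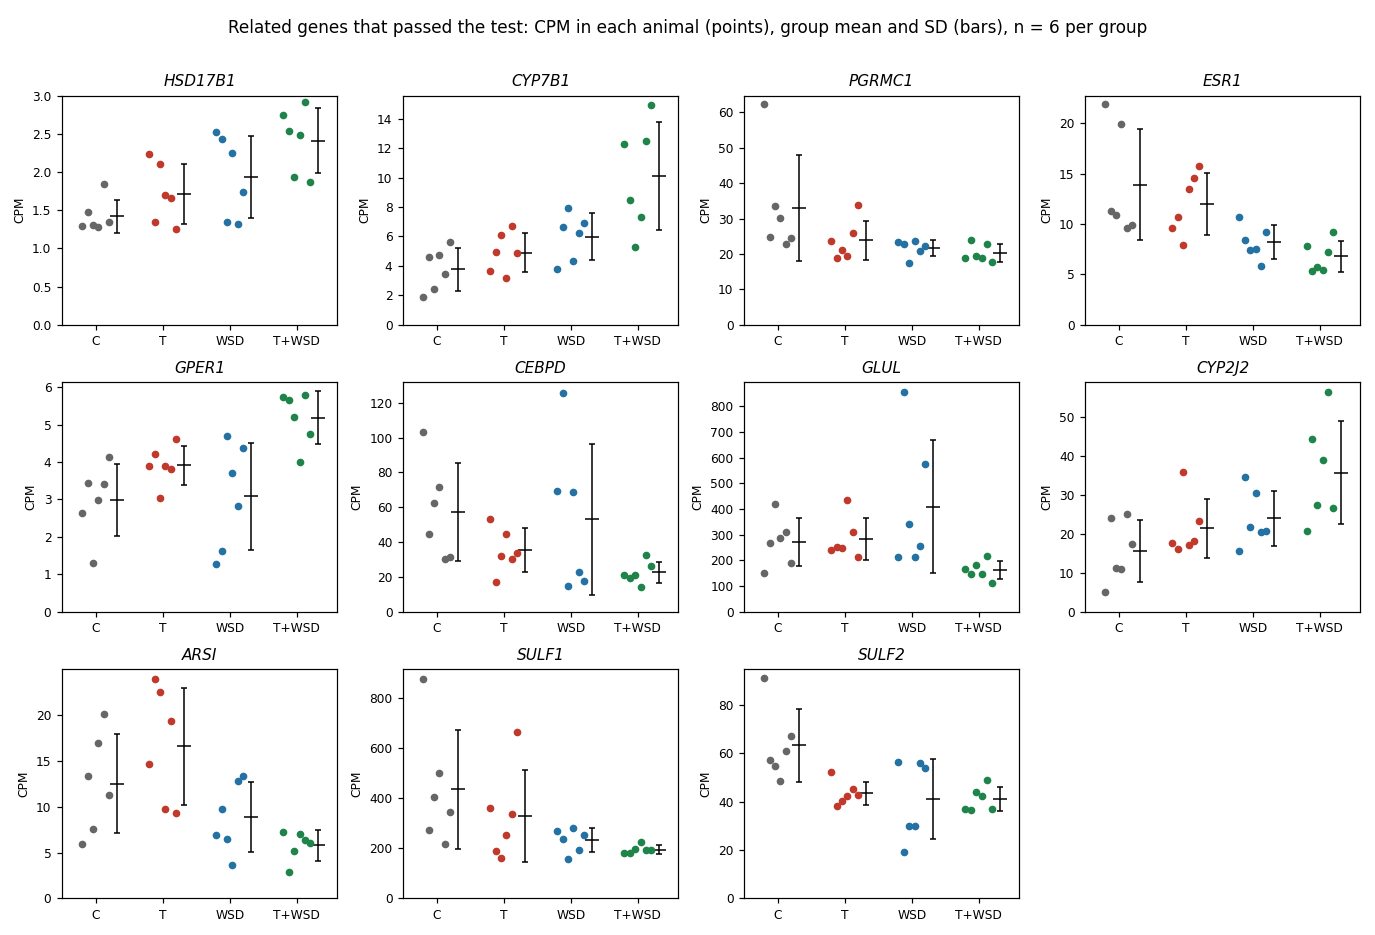
CPM in every animal, by group, of the 11 genes reported from the related lists that were called in at least 1 comparison of 2 groups, with 1 point per animal and the group mean with its SD (n = 6). In *T* + *WSD* against *C* the largest rise is that of *CYP7B1* (1.43 in log2) and the largest fall that of *CEBPD* (-1.34).

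Glucocorticoid-responsive genes did not rise with *HSD11B1* in *T* + *WSD*. Of 16 listed, 11 were found and 10 tested. *TSC22D3*, *KLF9*, *DUSP1*, *MT2A* and *MT1X* were not found. Against *C* 1 was called lower, where 5.29% of all genes were. Of the 10, 9 had a log2 fold change below 0, with a median of -0.37, where 45.1% of all genes were above 0. *CEBPD*, a transcription factor of adipocyte differentiation, fell by 1.34 (SE 0.44, adjusted p = 0.0389), from 30.0 over 53.6 to 103 CPM in *C* to 14.4 over 21.2 to 32.5 in *T* + *WSD*, a call lost in 8 of 12 fits that left out an animal. *FKBP5*, a standard target of the receptor named here outside the rule, was at -0.13 (SE 0.32, adjusted p = 0.826). With endothelial markers in the fit the median of the list was 0.072 with 4 of 10 below 0, and with smooth muscle and pericyte markers -0.10 with 6 of 10. With adipocyte markers it was -0.44 and with mesothelial markers -0.67.

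Against *WSD*, all 10 of these genes were lower in *T* + *WSD* (median -0.73, beside -0.032 over all genes, of which 45.4% were above 0). Of the 10, 5 had an unadjusted p under 0.05, against 20% of all genes. Only *GLUL*, glutamine synthetase, was called (-1.34, SE 0.31, adjusted p = 0.0367), where 0.815% of all genes were. *GLUL* ran from 211 over 300 to 855 CPM in *WSD* and from 111 over 157 to 218 in *T* + *WSD*, and its call was lost in 8 of 12 fits that left out an animal, among them those without WSD 20 or WSD 24. The list's median rested much on WSD 20. Without that animal the median was -0.30 with 7 of 10 below 0, in the 16 libraries without a high share it was -0.038 with 6 of 10, and in the high-share libraries alone -1.51. Against *C*, the *WSD* median was 0.40 in all animals, -0.069 without WSD 20, -0.028 outside the high-share libraries and 1.14 within them.

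**Figure D5:**
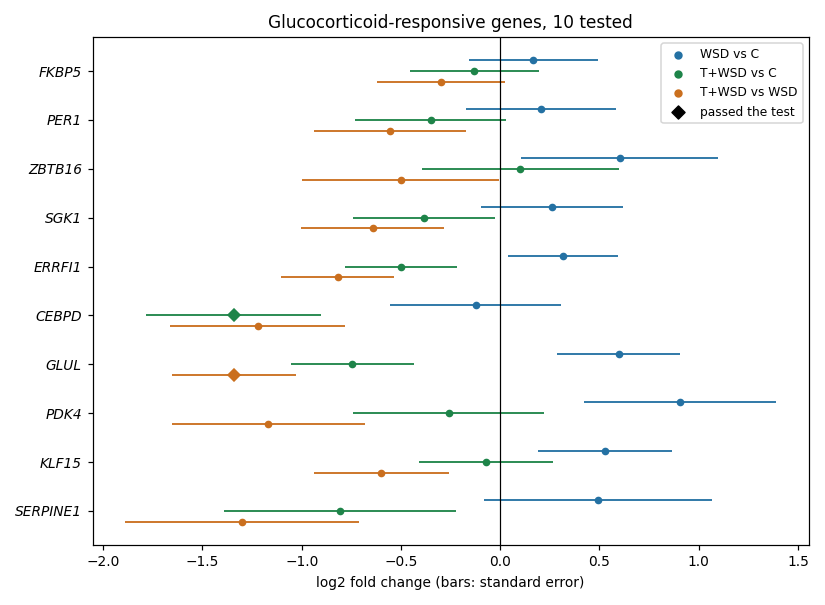
Log2 fold change of the 10 tested glucocorticoid-responsive genes in *WSD* against *C*, *T* + *WSD* against *C* and *T* + *WSD* against *WSD*, with the standard error as a bar and a diamond where a gene was called. The 10 points of *T* + *WSD* against *WSD* lie below 0 (median -0.73), and without animal WSD 20 the median is -0.30.

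Among the relatives of STS, the sulfatases and their activating enzymes, 13 tested genes are reported here. Of these, 3 were called lower in *T* + *WSD* against *C* and 0 higher, with a median of 0.026, where 5.29% of all genes were called lower and 4.72% higher. *SULF1* fell by 1.16 (SE 0.31, adjusted p = 0.0146) and *SULF2* by 0.62 (SE 0.20, adjusted p = 0.0386), both of which trim heparan sulfate outside the cell. *SULF1* was at 218 to 876 CPM in *C*, highest in C1 (without C1 -0.82, adjusted p = 0.0576), and at 179 to 225 in *T* + *WSD*, and *SULF2* was at 48.5 to 91.1 and at 36.7 to 49.0, highest in C1 among the controls (without C1 -0.47, adjusted p = 0.135). The *SULF2* call was lost in 7 of 12 fits that left out an animal, those without C1, C6, T+WSD 7, T+WSD 8, T+WSD 9, T+WSD 10 or T+WSD 12, and its direction turned with mesothelial markers in the fit (0.053). *ARSI* fell by 1.09 against *C* (SE 0.33, adjusted p = 0.0284) and by 1.49 against *T* (SE 0.33, adjusted p = 0.0160), from 9.25 over 17 to 23.9 CPM in *T* to 2.83 over 6.18 to 7.29 in *T* + *WSD*. Its call against *C* was lost in 4 of 12 fits that left out an animal, those without C4, C5, T+WSD 8 or T+WSD 9.

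Among the enzymes that take electrons from POR and its partners, 2 of 14 tested were called higher in *T* + *WSD* against *C* and none lower, *CYP7B1* and *CYP2J2*. Over all genes 4.72% were called higher and 5.29% lower. *CYP2J2*, an epoxygenase of arachidonic acid, ran from 5.06 over 14.2 to 24.98 CPM in *C*, 15.99 over 17.8 to 35.98 in *T*, 15.5 over 21.3 to 34.7 in *WSD* and 20.8 over 33.2 to 56.4 in *T* + *WSD*. Its log2 fold change was 1.21 (SE 0.32, adjusted p = 0.0150), and the call held in each of the 12 fits that left out an animal.

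Whether testosterone acted differently under the 2 diets was tested by the interaction, the effect of testosterone under the diet minus its effect on chow, at an adjusted p under 0.1. None of the 9 genes passed, where 0.809% of all genes did, and none had an unadjusted p under 0.05, against 13.5% of all genes. DESeq2 also called 0 of the 9, where it called 483 of all genes. *STS* was at -0.14 (SE 0.50, adjusted p = 0.957), with a 95% interval from -1.12 to 0.84, and *HSD11B1* at 0.29 (SE 0.65, adjusted p = 0.919), from -0.99 to 1.56. Intervals this wide leave room for a sizeable interaction in either direction. In the lists, *MCAT*, which loads malonyl groups in mitochondrial fatty acid synthesis, had an interaction of -0.71 (SE 0.17, adjusted p = 0.0819) and *HMOX2*, a heme oxygenase that takes electrons from POR, had one of -0.46 (SE 0.12, adjusted p = 0.0965).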

How the data were processed

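RNA of 24 omental biopsies, 1 library per animal, was sequenced as single reads after ribosomal RNA depletion. The authors trimmed the reads with Trimmomatic 0.36 after a check by FastQC 0.11.5, aligned them to rheMac8 with STAR 2.5.2b and deposited raw counts per Ensembl gene without normalization. The counting tool and its strand setting are not given in the sources used here.

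Groups came from the sample titles. Symbols came from a gene name table and, for 209 of 17830 named genes including *HSD11B1*, from identifiers in the study's supplementary tables. Here genes were kept by filterByExpr (minimum count 10, minimum total count 15). Library sizes were scaled by TMM, and edgeR 4.0.16 (R 4.3.3) gave two-sided quasi-likelihood p values from 1 model of the 4 groups (legacy and robust options on), adjusted by Benjamini-Hochberg over 15207 genes. DESeq2 was version 1.42.0. The standard error is the log2 fold change over the square root of F, and 95% intervals are 1.96 standard errors each way. Likeness used log2 CPM with a prior count of 2. The interaction threshold was an adjusted p of 0.1.

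Named were all 10 genes, from each list those called in any of 5 comparisons of 2 groups (if none, the 3 with the smallest p in *T* + *WSD* against *C*) and the 3 genes nearest in course to *HSD11B1*, *CYP19A1* and called members, with none for *CYP19A1*, which the filter removed. The genes and lists were chosen with earlier results of these data known. Alternatives were DESeq2, other normalizations (RLE, upper quartile), filters, edgeR options and thresholds, fits to the compared groups alone, the high-share libraries as a covariate or left out, mesothelial markers as a covariate, and each animal left out. Added after seeing the data were the high-share libraries alone, *CYP19A1* unfiltered with each animal left out, and the adipocyte, endothelial, and smooth muscle and pericyte covariates. The fit was tested on simulated data. Results of 2 genes of the related lists are not reported here, and list counts leave them out. Bisulfite data were not analysed here.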

Additional observations from a re-analysis of the deposited data

Results flagged for a closer look

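In 84 group-by-gene sets of 6 animals (the 10 enzymes and 11 related genes in 4 groups), 11 held an animal whose gap to its nearest neighbour, over the group's range, was above Dixon's critical value of 0.625. For normally distributed values, chance flags about 1 in 20 such groups, or 5%. The sets reuse the same animals and some hold few counts, so this share is only a rough guide. Among the enzymes, *CYP19A1* stood out in C1 (2.42 CPM, gap 0.859 of the range) and in T18 (1.75 CPM, gap 0.864). T14 stood out for *STS* (42.1 CPM, gap 0.743) and narrowly for *HSD11B1* (7.54 CPM, gap 0.626). C1 was far below the other controls for *HSD17B4* (99.1 CPM, gap 0.712). *SRD5A1* had a single high animal in *WSD* (animal 19, 1.69 CPM, gap 0.683) and in *T* + *WSD* (animal 10, 1.35 CPM, gap 0.713), values that rest on few counts.

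Among the related genes, single high animals were found for *HSD17B1* in C5 (1.84 CPM, gap 0.649), for *PGRMC1* in C1 (62.5 CPM, gap 0.728), for *SULF1* in animal 10 of *T* + *WSD* (225 CPM, gap 0.635) and for *CYP2J2* in T15 (35.98 CPM, gap 0.629). C1 is thus the animal apart in 3 of the 11 sets and T14 in 2. The interaction test at an adjusted p under 0.1 called *MCAT* (-0.71, adjusted p = 0.0819) and *HMOX2* (-0.46, adjusted p = 0.0965), neither of which passes at 0.05. Over all genes its 123 calls became 2 in the 16 libraries without a high share, 38 with no filter and 483 by DESeq2. How the calls of *MCAT* and *HMOX2* depend on the processing or on single animals was not followed here.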

How the results depend on the processing

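The 2 enzymes called in *T* + *WSD* against *C* became 1 (*STS*) with no filter, with at least 10 counts in every animal, which removed *HSD11B1*, and in the 16 libraries without a high share, and 0 with mesothelial, adipocyte, endothelial or smooth muscle and pericyte markers as a covariate and in the 8 high-share libraries. Leaving out an animal gave 1 to 2. In *WSD* against *C* the count of 0 became 1 by DESeq2, which called 238 of all genes against 0 in the main fit. Leaving out an animal gave 0 to 1 there, and 59 of all genes were called without WSD 19. In *T* + *WSD* against *T* the count of 1 became 2 by DESeq2, with only the groups compared and in the 16 libraries, and 0 with no filter, in the high-share libraries alone and with mesothelial, endothelial or smooth muscle and pericyte markers. Leaving out an animal gave 0 to 2. Of all genes, 574 were called in this comparison in the main fit, 1090 by DESeq2, 1059 with only the groups compared and 308 in the 16 libraries. Fewer than 574 were called under each alternative that gave 0 enzymes. For the interaction, for *T* against *C* and for *T* + *WSD* against *WSD* the count of enzymes called was 0 under every alternative run. The cause of these changes was not tested, except that fewer animals were fitted when libraries were left out. Over all genes, the 1522 called in *T* + *WSD* against *C* became 78 in the 16 libraries, 13 with smooth muscle and pericyte markers, 900 without C1, 1083 with at least 10 counts in every animal, 2603 with no fold-change threshold and 0 with the other marker covariates or in the high-share libraries alone. Of the related genes called in *T* + *WSD* against *C*, 0 were called in the 16 libraries, in the high-share libraries alone or with any marker covariate. By DESeq2 the steroid conversion list had 5 called in place of 3, where 1894 of all genes were called in place of 1522.

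Log2 fold changes turned sign as follows, all in comparisons where the gene was not called but for *SULF2*. In the high-share libraries alone, *T* + *WSD* against *C* was 0.030 for *HSD17B8*, 0.32 for *HSD17B12* and -0.022 for *HSD17B11*, and *T* against *C* was 0.47 for *HSD17B12*. In the 16 libraries, *HSD11B1* in *T* was at -0.43 and the interaction of *STS* at 0.013. With mesothelial markers, *SRD5A1* was at 0.27 and *SULF2* at 0.053 against *C*, *STS* at -0.13 and *HSD11B1* at -0.056 against *WSD*, and the interaction of *HSD11B1* at -0.16. With adipocyte markers, *POR* was at -0.023, *HSD11B1* in *T* at -0.26 and the interaction of *STS* at 0.15. With endothelial markers, *HSD17B11* was at -0.023 and *HSD11B1* in *T* at -0.052. Leaving out an animal moved *HSD17B12* in *T* + *WSD* between -0.35 and 0.00031, *HSD17B11* between -0.0082 and 0.17, *HSD11B1* in *T* between -0.22 and 0.37, and the interaction of *STS* between -0.31 and 0.21. No paired analysis was possible because the groups share no replicate number.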
